A study of Mus musculus with 4 samples.

Results

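The meiotic division cyclins and kinases described here are 10 genes, chosen by name: the A- and B-type cyclins Ccna1, Ccna2, Ccnb1 and Ccnb2, the cyclin-dependent kinases Cdk1 and Cdk2, the polo-like kinase Plk1, the aurora kinases Aurkb and Aurkc, and the phosphatase Cdc25c. They are 10 of the 37718 genes counted in the files, and they hold 78 of 207562 numbered introns, 148 of 359565 exon segments, 93 of 240574 annotated splice junctions and 10 of 5005 unannotated junctions. RNA came from hCD4+ cells of the testes of mice at 20 days post partum (dpp), isolated with magnetic beads. There were 2 samples from Tdrd6+/- mice and 2 from Tdrd6-/- mice, and the series' design text states that testes of at least 4 mice were pooled. In both genotypes the human CD4 tag is driven by the endogenous Tdrd6 promoter, so the cells collected are those in which that promoter is active, and the controls are heterozygous rather than wild type. TDRD6 is a protein of the chromatoid body, a granule of RNA and protein in male germ cells, and the study asked whether its loss changes splicing in diplotene spermatocytes, the last long stage of the first meiotic prophase.

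Entry into a cell division depends on a kinase bound to a cyclin. CDK1 with a B-type cyclin drives the cell from prophase into metaphase, and CDC25C removes the inhibitory phosphates that hold this pair in check. Polo-like kinase 1 and the aurora kinases act with it on the synaptonemal complex, the kinetochores and the spindle, with AURKB in dividing cells in general and AURKC in germ cells. Cyclin A1 is the germ cell A-type cyclin, needed by male mice for passing from diplotene into the first division, whereas cyclin A2 is the A-type cyclin of dividing somatic cells and spermatogonia. CDK2 is dispensable for most somatic divisions and indispensable for meiotic prophase. Male germ cells make and store mRNAs of the division machinery well before they divide.

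The files held 26454326 to 31388750 gene counts per sample. Tdrd6 itself, the targeted gene, stood at 1269 and 1412 CPM (counts scaled to library size) in Tdrd6+/- and at 11.4 and 12.5 CPM in Tdrd6-/-, so each library matched its label. Of the marker lists, the 9 pachytene to diplotene genes summed to 8296 and 8634 CPM in Tdrd6+/- and to 8646 and 9784 in Tdrd6-/-, with 1 gene called higher and 1 lower. The 8 spermatogonial genes summed to 24.3 and 23.5 against 28.4 and 32.5 CPM and the 7 Sertoli genes to 90.0 and 88.7 against 104.8 and 117.0, none called. The 6 leptotene to zygotene genes summed to 620.5 and 560.9 CPM in Tdrd6+/- and to 553.7 and 550.2 in Tdrd6-/-, none called. The 4 measured Leydig genes summed to 7.11 to 9.20 CPM, and the peritubular, leukocyte, erythroid and endothelial lists to at most 5.98 CPM each. The 9 measured spermatid genes summed to 27.1 and 36.9 CPM in Tdrd6+/- and to 47.8 and 45.1 CPM in Tdrd6-/-, 2 of the 5 tested being called higher, while protamine 1 (Prm1) had 0 counts in 3 samples and 4 in the last. Samples of the same genotype differed in 2 ways that bear on the values below. The share of tallied fragments on introns was 31.0% and 27.1% in Tdrd6+/- and 27.4% and 21.9% in Tdrd6-/-. It was highest in the first Tdrd6+/- sample and lowest in the second Tdrd6-/- sample, each apart from the middle samples. The first Tdrd6+/- sample also held the lowest CPM for 8 of the 10 division genes, whereas it was the lowest library for 29.9% of the 16555 genes tested.

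All 10 genes were counted in every library, with means from 1.06 to 108.4 on the scale used here. Levels of different genes were compared as CPM, with TMM scaling, per kb of annotated exon. The cyclins lay at both ends of the order. Ccnb2 stood highest, with 94.3 and 107.3 CPM per kb in Tdrd6+/- and 106.7 and 125.2 in Tdrd6-/-, a mean of 108.4 ± 12.8 (SD, n = 4). Ccna1 followed with 74.1, 106.2, 93.6 and 101.0 in the same sample order, a mean of 93.7 ± 14.1. The ranges of these 2 genes overlapped, and their order was not separable from the spread between samples. Ccna2 was the lowest of the 10 genes, with 1.13, 1.13, 0.88 and 1.12 CPM per kb. The ratio of Ccna1, the germ cell form, to Ccna2 was 65.5 and 94.3 in Tdrd6+/- and 107.0 and 90.4 in Tdrd6-/-.

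**Figure D1:**
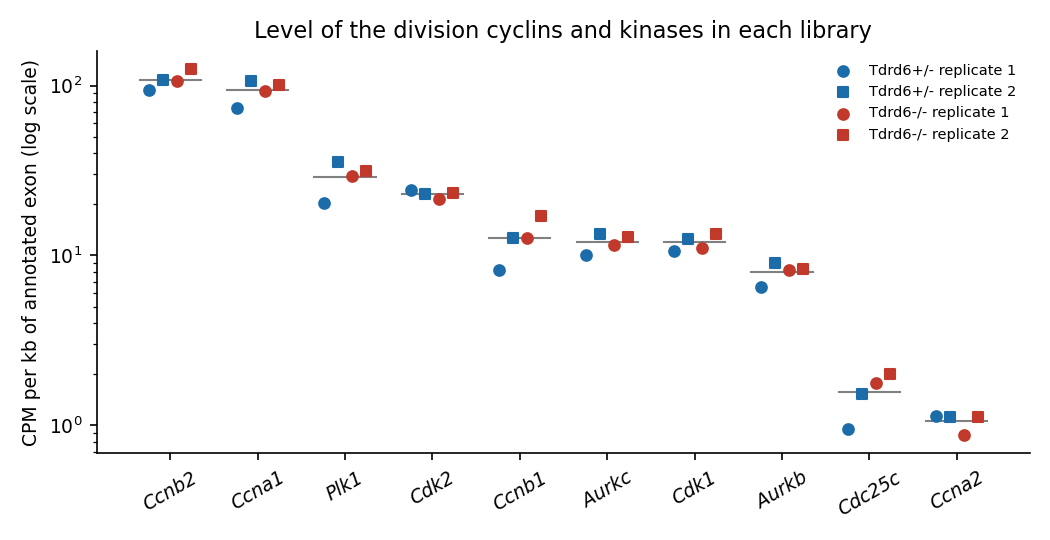
Level of each gene in each library, as CPM per kb of annotated exon on a log scale, with Tdrd6+/- samples in blue, Tdrd6-/- samples in red, circles for replicate 1, squares for replicate 2 and a grey line for the mean of 4 samples. Ccnb2 and Ccna1 lie near 100 CPM per kb, Cdc25c and Ccna2 between 0.88 and 2.01, and for each gene the 2 genotypes lie within a short span of this axis.

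Plk1 was next, with 20.3 and 35.4 CPM per kb in Tdrd6+/- and 29.3 and 31.6 in Tdrd6-/-. Cdk2 lay between 21.6 and 24.3 in all 4 samples and overlapped with Plk1. Ccnb1, the B-type cyclin that mouse embryos cannot do without, had 8.18, 12.6, 12.6 and 17.1 CPM per kb, Aurkc had 10.03, 13.4, 11.6 and 12.8, and Cdk1 had 10.6, 12.6, 11.1 and 13.4. These 3 genes overlapped and could not be ordered. Aurkb followed at 6.53 to 8.98 CPM per kb, below Cdk1 in every comparison of samples, and Cdc25c at 0.95 to 2.01 overlapped only with Ccna2. Part of this order rests on the lengths used. The annotated 3′ segment of Cdk1 is 3178 bp long and held only 47 to 55 fragments per library, and the union of Cdk2 exons, 6219 bp, is far longer than its longest transcript of 3264 bp. Cdk2 had a mean of 23.1 ± 1.12 CPM per kb by the union and 44.0 ± 2.13 by the longest transcript, by which it stood above Plk1. A measure free of length, the median count over a gene's annotated junctions with at least 20 counts in the 4 libraries together, gave 1944 for Ccnb2, 1749 for Ccna1, 961 for Cdk2, 676 for Cdk1, 644 for Ccnb1, 448 for Plk1, 208 for Aurkc, 192 for Aurkb, 49.5 for Cdc25c and 29 for Ccna2. The Aurkc value falls between well-counted and sparse junctions (504 counts in the highest of them, 27 in the lowest), so it gives no level to rank. Ccnb2 and Ccna1 at the top and Cdc25c and Ccna2 at the bottom thus held on all 3 scales, and the place of Plk1 did not.

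None of the 10 genes was called as changed between the genotypes. All 10 passed the filter on low counts, and none reached an adjusted p of 0.1 in edgeR's quasi-likelihood test, in which 4.8% of the 16555 genes tested were called (169 higher, or 1.02%, and 625 lower in Tdrd6-/-). The median log2 fold change was 0.10 over the 10 genes and 0.01 over all genes. At an unadjusted p under 0.05 were 2 of the 10, Ccnb1 and Cdc25c, beside 14% of all genes. Both Tdrd6-/- samples lay above both Tdrd6+/- samples for these same 2 genes, beside 20.1% of all genes, and below them for Ccna2 alone, beside 23.4%. Fewer cells of a stage and less RNA per cell cannot be told apart in such bulk samples.

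Among the cyclins, Ccnb1 had the largest difference. It had 903 and 1480 counts in Tdrd6+/- against 1682 and 2309 in Tdrd6-/-, or 34.5, 53.1, 53.2 and 72.1 CPM. The first Tdrd6+/- sample was low, the second Tdrd6-/- sample was high, and the 2 middle samples were nearly equal across the genotypes. The log2 fold change, Tdrd6-/- over Tdrd6+/-, was 0.52 ± 0.18 (SE, adjusted p = 0.154). Without the first Tdrd6+/- sample it was 0.25 (adjusted p = 0.65), without the second it was 0.86 (adjusted p = 0.0198), without the first Tdrd6-/- sample it was 0.72 (adjusted p = 0.0296), and without the second it was 0.29 (adjusted p = 0.94). The fit without the first Tdrd6+/- sample called 3.23% of all genes and none of the 10, and the fit without the second called 6.14% and 3 of the 10, Ccnb1, Plk1 and Cdc25c. Without the first Tdrd6-/- sample 4.22% were called, Ccnb1 alone among the 10, and without the second 1.5% and none of the 10. Ccnb2 had 144.3 and 164.2 CPM in Tdrd6+/- and 163.4 and 191.7 in Tdrd6-/-, with a log2 fold change of 0.20 ± 0.13 (adjusted p = 0.56). The ratio of Ccnb2 to Ccnb1 per kb was 11.5 and 8.51 in Tdrd6+/- and 8.46 and 7.32 in Tdrd6-/-, the middle samples again lying close together. Ccna1 had 136.0, 194.8, 171.8 and 185.4 CPM, both Tdrd6-/- samples lying between the 2 Tdrd6+/- samples, and a log2 fold change of 0.11 ± 0.15. Ccna2 rested on 121, 128, 113 and 146 counts, and its log2 fold change of -0.18 ± 0.26 was within its error.

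**Figure D2:**
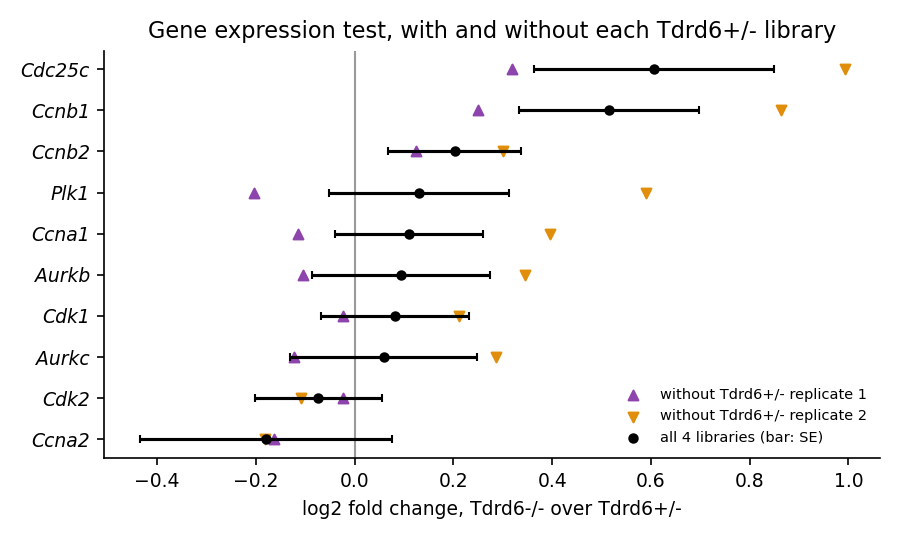
Log2 fold change of each gene, Tdrd6-/- over Tdrd6+/-, in edgeR's quasi-likelihood fit to all 4 libraries (black, bars are SE) and in fits without the first (purple) or the second (orange) Tdrd6+/- library. Ccnb1 and Cdc25c lie farthest to the right, at 0.52 and 0.61, and for 8 genes the fit without the second Tdrd6+/- library lies to the right of the one without the first.

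The kinases that these cyclins bind had differences smaller than their SE. Cdk1 had 52.4 and 62.0 CPM in Tdrd6+/- and 54.9 and 66.2 in Tdrd6-/-, with a log2 fold change of 0.08 ± 0.15. Cdk2 had 151.1 and 143.6 CPM against 134.4 and 145.6, with -0.07 ± 0.13. The values of both genotypes interleaved for each kinase. Plk1, which triggers the CDC25C step and later acts at kinetochores, was the most uneven within a genotype, with 44.5 and 77.8 CPM in Tdrd6+/- and 64.5 and 69.5 in Tdrd6-/- (log2 fold change 0.13 ± 0.18, adjusted p = 0.84). Its value changed sign with the control kept, from -0.20 without the first Tdrd6+/- sample (adjusted p = 0.67) to 0.59 without the second (adjusted p = 0.0420). Aurkb, a subunit of the chromosomal passenger complex, had 19.2, 26.5, 24.1 and 24.7 CPM and a log2 fold change of 0.09 ± 0.18, and Aurkc had 15.3, 20.4, 17.6 and 19.5 CPM and 0.06 ± 0.19. The ratio of Aurkb to Aurkc per kb was 0.65, 0.67, 0.71 and 0.65 in the 4 samples, a narrower span than that of either gene.

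Cdc25c, an activator of CDK1, had the largest log2 fold change of the 10 genes, 0.61 ± 0.24 (adjusted p = 0.23), on 123 and 210 counts against 277 and 317, or 4.70, 7.54, 8.76 and 9.90 CPM. The first Tdrd6+/- sample lay well below the other 3. Without it the log2 fold change was 0.32 (adjusted p = 0.71), and without the second Tdrd6+/- sample it was 0.99 (adjusted p = 0.0547). The summed spermatid, spermatogonial, Sertoli and pachytene to diplotene markers given above were likewise higher in both Tdrd6-/- samples than in both Tdrd6+/- samples. Those of leptotene to zygotene were lower. The sums of spermatids and of pachytene to diplotene were lowest in the first Tdrd6+/- sample. Members of a list differed. Of the pachytene to diplotene list, Ldhc rose from 3612 and 3871 CPM to 3984 and 4909, and Piwil1 fell from 1105 and 928.2 to 732.1 and 765.4. Mybl1 and Ovol1 were also lower in both Tdrd6-/- samples. Of the Sertoli list, Clu was higher and Sox9 lower in both. The part of these stages and cell types in the values of Ccnb1 and Cdc25c was not tested.

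A wider list of M-phase and cell cycle regulators was called at about the rate of all genes. Of 67 listed genes, 64 were tested and 3 were called, beside 4.8% of all genes. Ube2c, the ubiquitin-conjugating enzyme of the anaphase promoting complex, rose from 5.38 and 9.08 CPM in Tdrd6+/- to 14.2 and 16.4 in Tdrd6-/- (log2 fold change 1.08 ± 0.23, adjusted p = 0.0101). Ccnd3, a D-type cyclin of G1 phase, rose from 3.28 and 3.37 CPM to 7.24 and 5.41 (0.92 ± 0.26, adjusted p = 0.0490). Anapc2, the cullin subunit of the anaphase promoting complex, fell from 33.1 and 31.6 CPM to 20.9 and 15.9 (-0.81 ± 0.18, adjusted p = 0.0103). In none of these 3 did the genotypes overlap, but they were named because they were called, so this adds no support. Of all genes, 20.1% were higher and 23.4% lower in both Tdrd6-/- samples than in both Tdrd6+/- samples. None of 12 genes of the chromosomal passenger complex and kinetochore signalling was called, and their log2 fold changes ran from -0.28 to 0.09 with a median of -0.04. None of 14 tested inhibitory kinases, phosphatases and CDK partners was called, with a median of 0.11, nor were 17 of 18 further cyclins and kinases and 18 of 20 genes of the anaphase promoting complex and its regulators.

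Counts on the numbered introns were sparse beside the gene counts for most of the division genes. The median gene had 61.2 intron counts per 100 gene counts over the 4 libraries together (14073 genes with at least 20 counts of each kind). Ccnb1 had 8.17, so that 4.2% of genes were lower, and Plk1 had 11.1, Aurkb 11.95, Cdk2 13.2, Ccnb2 18.7, Ccna2 19.3, Ccna1 22.9 and Cdk1 37.5. Cdc25c, with 53.4, and Aurkc, with 76.1, were near the middle. These ranks depend on the annotation, since a stretch of intron that another transcript holds as exon is counted as an exon segment. Ccnb1 had 5 numbered introns beside 10 annotated junctions, and Aurkb 4 beside 10, so their values leave out part of the intronic fragments. Intron length was not taken into account. For Aurkc, 211, 277, 291 and 307 of its 331, 430, 442 and 434 intron counts fell on its first intron.

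**Figure D3:**
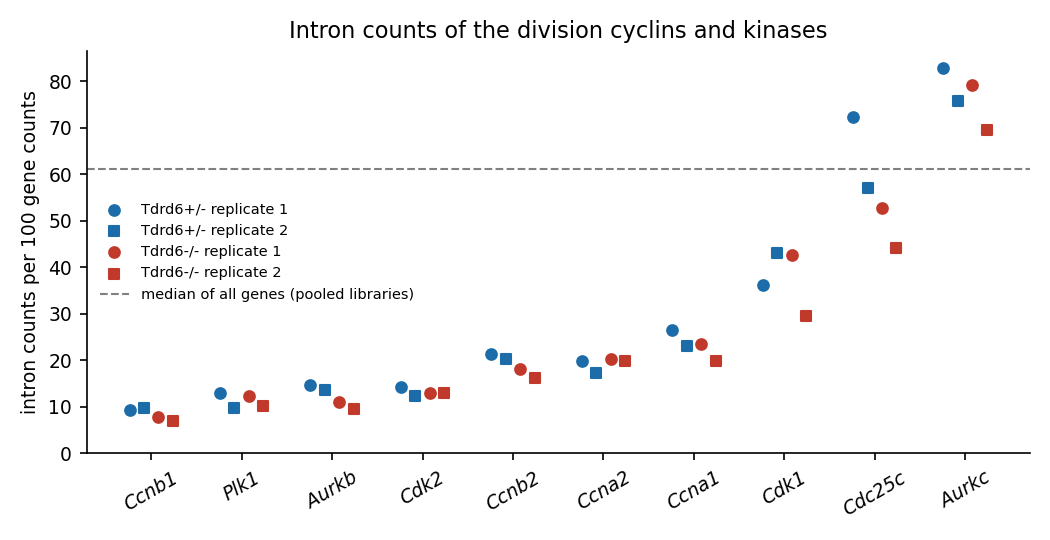
Intron counts per 100 gene counts of each gene in each library, with Tdrd6+/- samples in blue, Tdrd6-/- samples in red and a dashed line at 61.2, the median of all genes over the pooled libraries. Aurkc lies above the line, Cdc25c on both sides of it and the other 8 genes below it.

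The balance of intronic and exonic counts was not called as changed for any of the 10 genes, all tested, beside 2.79% of the 14073 genes tested by edgeR's quasi-likelihood test of the interaction. Ccnb1 had 9.41 and 9.73 intron counts per 100 gene counts in Tdrd6+/- and 7.85 and 6.93 in Tdrd6-/-, and Aurkb had 14.7 and 13.6 against 11.1 and 9.49. Ccnb2 had 21.3 and 20.4 against 18.1 and 16.2. With intron and gene counts each scaled by their own library factors, the log2 ratio changes were -0.10 ± 0.20 for Ccnb1, -0.17 ± 0.23 for Aurkb and 0.01 ± 0.17 for Ccnb2. With 1 set of factors for both they were -0.38, -0.45 and -0.28 (adjusted p = 0.71, 0.65 and 0.76), beside a median of -0.24 over all genes. The furthest from 0 was Ccna2 with 0.42 ± 0.37, on 22 to 29 intron counts per library, and the smallest adjusted p was 0.55, for Cdk2 with 0.27 ± 0.17.

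No single intron was called. Usage, an intron's own count against the other introns of its gene, was fitted for the 75 of 78 introns with 10 or more counts, and 23 introns in 6 of the 10 genes had a mean count high enough to be tested. Of the 41383 introns tested in all, 1.74% were called by edgeR's quasi-likelihood test. The nearest was the sixth in chromosome order, the third in transcript order, of Ccnb2 (chr9:70413273-70418793, minus strand, 5521 bp, the longest of its introns). It held 236 and 216 counts in Tdrd6+/- and 182 and 196 in Tdrd6-/-, or 29.3% and 23.2% of the gene's intron counts against 19.5% and 19.7%. The genotypes did not overlap, but this intron was named for its small p, so this adds no support. The log2 usage change was -0.54 ± 0.20 (SE, adjusted p = 0.22), or -0.31 without the first Tdrd6+/- sample and -0.77 without the second. In other genes the nearest were the fourth intron of Ccna1 (0.42 ± 0.21, adjusted p = 0.43) and the first intron of Cdk1 (0.31 ± 0.25, adjusted p = 0.69).

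Exon segments and junctions of the 10 genes were likewise not called. Of 148 segments 125 were tested, of 93 annotated junctions 63 and of 10 unannotated junctions 8, beside calls at 0.254% of all features tested, 0.308% of segments and 0.156% of junctions. The first exon of Ccnb2 (chr9:70421417-70421547) held 208 and 256 fragments in Tdrd6+/- and 336 and 417 in Tdrd6-/-, or 5.50 and 5.60 per 100 gene counts against 6.50 and 6.79 (log2 usage change 0.28 ± 0.13, adjusted p = 0.73). The junction between its first and second exon held 137 and 173 counts against 240 and 279, or 3.63 and 3.78 per 100 gene counts against 4.65 and 4.55 (0.32 ± 0.15, adjusted p = 0.71). In both the genotypes did not overlap, but both features were named for their small p, so this adds no support. The share of all features without overlap was not computed. The other 8 exons of Ccnb2 had log2 usage changes from -0.13 to 0.22, none called. A segment of Ccnb1 inside an intron of its main transcript (chr13:100781784-100782033) held 15, 37, 26 and 28 fragments (-0.69 ± 0.31, adjusted p = 0.70), and the long 3′ segment of Cdk1 given above had -0.40 ± 0.23 (adjusted p = 0.85). Among junctions of other genes the nearest were the sixth of Aurkb, with 22, 46, 66 and 58 counts (0.59 ± 0.28, adjusted p = 0.71), and the first of Cdk2 (0.27 ± 0.16, adjusted p = 0.86). On simulated counts with an even dispersion this test found 24% of exon and junction features changed by 1 on the log2 scale. It found 98% of those changed by 2. With dispersions that varied between features it found 0% and 80.5%. The changed features all had a mean of at least 100 counts, as did the rest of their gene. At such counts a change of 1 or less, and at times one of 2, could thus go uncalled with 2 samples a genotype. At lower counts, such as the 15 to 37 fragments of the Ccnb1 segment, no feature was changed in the simulation. The share found there is therefore not known.

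Where the annotation offers a choice of splice sites, the division genes used mostly one form. The exception among placed junctions was Cdk2, whose cassette exon of 144 bp (chr10:128699976-128700119, minus strand, inside the coding sequence) was included in most junction counts and skipped in some. Its length is a multiple of 3, or 48 codons. It is shown in capitals with 15 bases of each neighbouring exon, from the GENCODE M21 transcript.
Cdk2 cassette exon: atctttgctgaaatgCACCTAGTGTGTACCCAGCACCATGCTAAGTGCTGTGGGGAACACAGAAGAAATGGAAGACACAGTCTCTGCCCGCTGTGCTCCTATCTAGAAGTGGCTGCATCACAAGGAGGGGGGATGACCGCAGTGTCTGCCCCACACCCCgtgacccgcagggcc
The skipping junction held 16 and 20 counts in Tdrd6+/- and 16 and 13 in Tdrd6-/-. The junctions into the exon held 185 and 186 against 214 and 236, and the junctions out of it 163 and 167 against 178 and 211. Of the junctions leaving the upstream exon, skipping took 7.96% (Wilson 95% interval 4.96 to 12.5) and 9.71% (6.37 to 14.5) in Tdrd6+/- and 6.96% (4.33 to 11) and 5.22% (3.08 to 8.73) in Tdrd6-/-. Of the junctions entering the downstream exon it took 8.94% and 10.7% against 8.25% and 5.80%. Both Tdrd6-/- values were lower at either end, but all 4 intervals overlapped, and the usage test gave the junction a log2 change of -0.47 ± 0.37 (SE, adjusted p = 0.92). These intervals, as all those of shares here, cover counting error only.

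**Figure D4:**
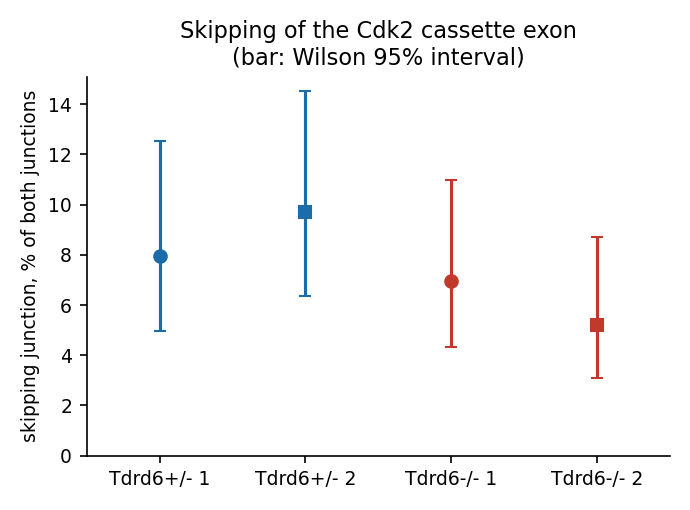
Share of junctions leaving the exon upstream of the Cdk2 cassette exon that skip it, in percent, in each library, with Wilson 95% intervals. The shares run from 5.22% to 9.71%, and the intervals of the 4 libraries overlap.

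In Ccnb1, the junction that skips the exon before the last was at 0 in all 4 libraries. The junctions that include this exon held 675 counts at one of its ends and 226 at the other, which allows a share of up to 0.444% and 1.33% at 3 counts. A second skip, of the exon of 183 bp (chr13:100783465-100783647), took 4 of 459 counts at one end, or 0.87% (0.34 to 2.22), and 4 of 720 at the other, or 0.56% (0.22 to 1.42). In Cdk1, 396 of 397 counts that reached one shared splice site came from the same upstream exon, the annotated alternatives holding 0 or 1 count, and the use of a splice site 4 bases away took 4 of 508 counts. In Aurkb, an alternative acceptor took 2 of 228. In Ccna2 all 28 counts skipped the 90-bp exon at chr3:36570076-36570165. Counts this small, spread over 4 libraries, do not allow genotypes to be compared. Unannotated junctions were found in 3 of the 10 genes. In Ccna1, 7 of them took 7.11% and 5.80% of the gene's junction counts in Tdrd6+/- and 6.02% and 6.73% in Tdrd6-/-, and in Cdk2 a single one took 1.03%, 1.46%, 1.08% and 1.78%. In Aurkc 2 of them took 26.4% and 24.4% against 25.96% and 24.3%, while its annotated junction between exons 1 and 2 was at 0 in every library. The files give no positions for these.

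Aurkc had an uneven profile along its exons. Exons 3, 6 and 7 held 57.2 to 119.3 fragments per 100 bp, whereas exon 4 (chr7:6997514-6997652, 139 bp) held 14.4, 15.1, 14.4 and 18.0 and exon 5 (chr7:6999979-7000127, 149 bp) held 10.7, 8.05, 8.05 and 10.1 in the 4 samples. Exons 4 and 5 together thus had 17.4% and 11.6% of the density of exons 3 and 6 in Tdrd6+/- and 11.7% and 12.3% in Tdrd6-/-. The junctions behaved in the same way. The junction between exons 2 and 3 held 93, 130, 140 and 141 counts and that between exons 6 and 7 held 65, 103, 96 and 119, but the 3 junctions between exons 3 and 6 averaged 5, 5, 5 and 7.67. None of the 6 junctions annotated in the files passes over both exons. The 2 unannotated junctions of Aurkc, with 9 to 17 and 53 to 79 counts per library, have no positions, so whether either does is not known. The dip was present in each library and of like depth in both genotypes, with the first Tdrd6+/- sample a little shallower.

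**Figure D5:**
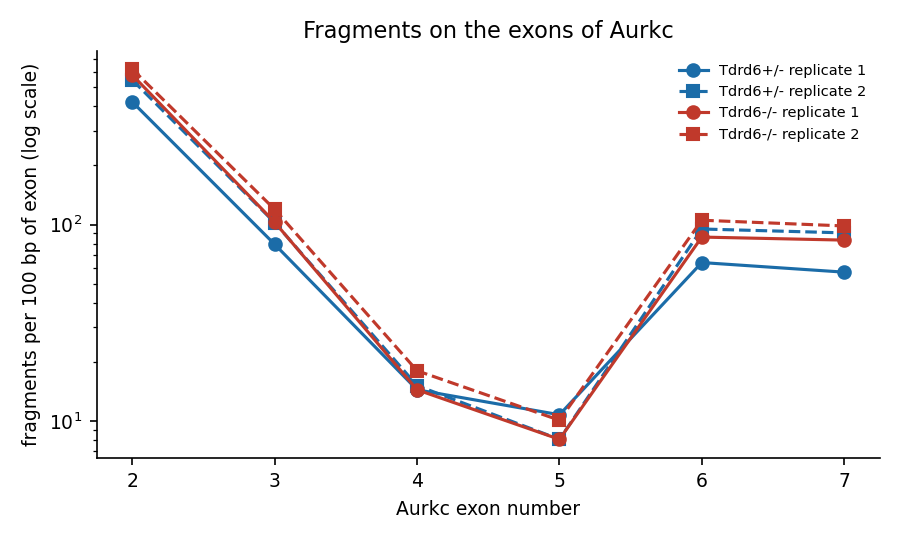
Fragments per 100 bp of exon on a log scale for exons 2 to 7 of Aurkc, one line per library, Tdrd6+/- in blue, Tdrd6-/- in red. All 4 lines drop at exons 4 and 5 to between 8.05 and 18.0 and return at exon 6. Exon 2, of 34 bp, lies highest, at 421 to 618.

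The same stretch is present in a second copy. The spliced Aurkc transcript shares an unbroken run of 704 bases with Gm12463, an intronless gene copy, from the last 23 bases of exon 2 to the first 26 of exon 7. Exons 3 to 6 lie wholly inside this run, exons 4 and 5 in its middle. In the sequences below, from GENCODE M21, capitals mark the bases of Aurkc outside the run, exon 7 being given to its 60th base.
Aurkc exon 2, chr7:6996268-6996301: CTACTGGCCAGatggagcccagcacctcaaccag
Aurkc exon 4, chr7:6997514-6997652: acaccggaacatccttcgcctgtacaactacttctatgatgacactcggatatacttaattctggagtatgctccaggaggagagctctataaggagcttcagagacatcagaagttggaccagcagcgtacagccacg
Aurkc exon 5, chr7:6999979-7000127: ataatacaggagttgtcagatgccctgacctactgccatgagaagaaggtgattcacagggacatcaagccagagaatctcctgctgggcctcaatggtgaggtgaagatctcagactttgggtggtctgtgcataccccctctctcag
Aurkc exon 7, chr7:7002793-7002852: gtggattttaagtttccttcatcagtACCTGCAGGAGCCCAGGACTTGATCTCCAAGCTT
Gm12463 had 95 and 105 counts of its own in Tdrd6+/- and 109 and 122 in Tdrd6-/-. How fragments that match both places were counted is not given in the sources used here, and their part in the dip was not tested, so the level of Aurkc and the counts on exons 3 to 6 are uncertain. Another 8 annotated copies, aligned over 955 to 1069 bases, were 93.3% to 96.1% identical, and none of these had a gene row of its own.

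Other members have near copies too. Ccnb1 is matched by Ccnb1-ps at 99.2% identity and by Gm12856 at 98.1%, with longest shared runs of 278 and 218 bases. Ccnb1-ps had 45, 72, 70 and 118 counts and Gm12856 had 34, 35, 37 and 68, beside the 903 to 2309 of Ccnb1, so Ccnb1 values carry this uncertainty as well. Plk1 is matched by Plk-ps1 at 93.5%, which had 1 or 2 counts per library. Ccna1, Ccna2, Cdk2, Plk1 and Cdc25c overlap an annotated gene on the other strand, of which Exosc9, overlapping Ccna2, had 1614 to 2505 counts against 113 to 146 of Ccna2. The library kit keeps the strand, but whether the counting used it is not given in the sources used here.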

How the data were processed

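RNA of 4 samples of hCD4+ mouse testis cells (2 Tdrd6+/-, 2 Tdrd6-/-) was depleted of rRNA and sequenced from directional libraries. The authors aligned reads with GSNAP to mm10 and deposited raw counts per gene, exon segment, splice junction (Ensembl 75) and intron, with bcl2fastq 1.8.4 named in the submitters' processing notes. Samples were grouped by the labels. The members, the gene lists and the rule for named features (of the tested features of a kind without calls, the 3 with the smallest p, at most 1 per gene) were chosen with earlier results of these data known.

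Gene counts were tested with edgeR 4.0.16 (quasi-likelihood, TMM, filterByExpr, R 4.3.3), with Benjamini-Hochberg adjustment over all genes and a threshold of 0.1. Intron counts against gene counts were tested by an edgeR interaction (at least 20 of each). For usage, a likelihood ratio test in the manner of the authors' packages, fitted with DESeq2 1.42.0, had been planned. On simulated exon and junction counts (50934 features) 81.3% to 89.2% of its calls were false, and on introns (21166 features) 57.5% to 68.8%. After it had been run on these data it was therefore replaced, on the simulated counts alone, by edgeR's quasi-likelihood test of the same model (own count against the rest of the gene, at least 10 counts, independent filtering by mean count), of whose calls 6.5% to 13.2% were false in the simulations where it made any. With dispersions that varied between features it made no calls at a log2 change of 1. Features were placed with GENCODE M21 (GRCm38), which differs in part from the deposited annotation, and copies were found with BLAST 2.17.0+. An exact two-sided permutation test of 2 against 2 cannot go below p = 0.33, so none was used. Whether the pools of a genotype share mice is not given in the sources used here, so p-values measure only the spread between these samples.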

Additional observations from a re-analysis of the deposited data

How the results depend on the processing

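None of the 10 genes was called in the gene test with DESeq2, with its size factors, without a filter or at a threshold of 0.05, and leaving out a sample gave 0 to 3 called genes. The count over all genes, 794, was 75 without a filter and 257 to 1064 with a sample left out, the lowest without the second Tdrd6-/- sample. The sign of small gene changes depended on the sample left out: Ccna1 ran from -0.11 to 0.40, Cdk1 from -0.0506 to 0.21, Plk1 from -0.20 to 0.59, Aurkb from -0.10 to 0.34 and Aurkc from -0.12 to 0.29. No intron, exon segment or junction of the 10 genes was called in any alternative, but with a sample left out the usage change of those named ran from -0.77 to -0.31 (Ccnb2 intron), 0.19 to 0.64 (Ccna1 intron), 0.11 to 0.47 (Cdk1 intron), -0.90 to -0.30 (Ccnb1 segment), -0.56 to -0.25 (Cdk1 segment), 0.38 to 0.92 (Aurkb junction) and 0.13 to 0.41 (Cdk2 junction). The 718 introns called in all were 312 at a threshold of 0.05, 2 with edgeR's diffSpliceDGE, 1855 with the likelihood ratio test and 2 to 2235 with a sample left out (2 without the second Tdrd6-/- sample, 8 without the first Tdrd6+/- and 2235 without the first Tdrd6-/-), and the 581 exon segments and junctions were 313, 80, 1982 and 98 to 3356 (98 without the second Tdrd6-/- and 3356 without the second Tdrd6+/- sample). No intron to gene ratio of the 10 genes was called in any alternative, while the 393 called in all were 239 with 1 set of TMM factors, 220 at 0.05 and 63 to 1007 with a sample left out (63 without the first Tdrd6+/-, 233 without the second Tdrd6-/- and 1007 without the first Tdrd6-/- sample). With 1 set of factors, which moved the median of all genes by -0.24, the ratio change was -0.19 for Ccna1, -0.28 for Ccnb2, -0.15 for Cdk1, -0.0213 for Cdk2, -0.0107 for Plk1 and -0.0928 for Aurkc, and it moved without a change of sign to -0.38 for Ccnb1, -0.45 for Aurkb, -0.40 for Cdc25c and 0.12 for Ccna2. With a sample left out it ran from -0.23 to 0.044 for Ccnb1, -0.13 to 0.16 for Ccnb2 and -0.0663 to 0.33 for Cdk1. The ratio of the highest to the lowest level was 102 by the union of exons and 74.1 by the longest transcript. The cause of these shifts was not tested. No range of usage change is listed here for the first exon of Ccnb2 and the junction after it, which were also named above.

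Deviations from the genotype mean had r = -0.11 between same-numbered samples and 0.11 between differently numbered ones, over 12347 genes. With 2 samples a genotype these 2 values are each other's negative by construction. They cannot decide whether the numbers stand for a pairing. With a replicate block 1 of the 10 genes, Ccnb1, was called (adjusted p = 0.0145), beside 6.32% of all genes, and in all 2355 introns and 1475 exon segments and junctions. The crossed pairing, chosen after seeing the data, called 1175 genes, or 7.1%, and 2 of the 10, Ccnb1 and Cdc25c.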
